A study of Homo sapiens with 12 samples.

Results

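The BCL2 family sets whether a stressed cell opens its mitochondrial outer membrane and dies by apoptosis. Here 10 of its genes were read out in the SK-N-DZ RNA-sequencing, picked out of the count table by gene symbol: the pro-survival genes BCL2, BCL2L1 and MCL1, the pore-forming effectors BAX and BAK1, and the BH3-only genes BCL2L11, BID, BMF, PMAIP1 and BBC3. All 10 were found, each as 1 of the 43769 genes in the count table, and all 10 passed the filter on low counts that left 15828 genes for testing. SK-N-DZ is a MYCN amplified neuroblastoma (NB) line, and the cells were a clone carrying a doxycycline-inducible hairpin against ARID1A, a subunit of the SWI/SNF chromatin remodeling complex.

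The 12 libraries fell into 4 groups of 3. Group C was untreated and labelled WT. Group D received doxycycline for 4 days and was labelled shARID1A. Group I was labelled WT and received IFNγ for 24 h, and group DI received doxycycline for 4 days with IFNγ for 24 h and was labelled shARID1A. By the methods the inducible lines were puromycin-selected clones, and secondary clones were also kept. The sample titles name neither a clone nor a hairpin, so the libraries are taken here to represent 1 clone. There was no group with doxycycline and without the hairpin, so the antibiotic and the hairpin cannot be told apart. The labels number the replicates from 1 to 3 in each group without stating that they were separate cultures, so p-values measure the spread between these libraries.

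As background, pro-survival members such as BCL-2, BCL-XL and MCL-1 bind and restrain their relatives. Once freed, BAX and BAK assemble into pores that release cytochrome c, and caspases then dismantle the cell. BH3-only proteins are the sensors: they occupy the groove of the pro-survival proteins or engage the effectors directly, and neuroblastoma is known for its reliance on BCL-2 and MCL-1.

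Total counts per library ran from 16469832 to 21790869, at which 3 counts, taken as the detection floor, equal 0.135 to 0.187 CPM (counts scaled to the TMM-adjusted library size). Members had 275 to 7463 counts in each library, so none was near that floor. These limits cover counting error only. ARID1A stood at 197, 186 and 165 CPM in C, 197, 159 and 158 with doxycycline (D), 192, 202 and 193 with IFNγ (I) and 151, 133 and 148 with both (DI), so the D libraries overlapped C and the DI libraries lay below I. The DI vs I difference in ARID1A had a log2 fold change of -0.44 ± 0.11 (SE, n = 3 per group, edgeR adjusted p = 0.115; adjusted p = 0.0111 with the replicate number as a block). DESeq2 called this difference too. In D vs C the ARID1A log2 fold change was -0.09, called neither by edgeR, with or without the block, nor by DESeq2. The 9 adrenergic neuroblastoma markers summed to 4220 to 5579 CPM over the 12 libraries, with none called by edgeR without the block in any contrast. DESeq2 called 1 of them in I vs C (2.93% of genes), 1 in DI vs D (2.3%) and 2 in DI vs C (7.41%). With the block, 1 was called higher and 1 lower in I vs C (6.02% of genes) and in DI vs D (4.46%). In DI vs C the block called 1 higher and 2 lower (19%), and in DI vs I 1 lower (10.5%). TH among them stood at 47.3, 3.13 and 74.7 CPM in C and 1.33, 7.03 and 0.694 with doxycycline (D). Under IFNγ, TH stood at 21.5, 2.18 and 58.9 CPM (I) and, with both agents, at 1.90, 3.07 and 0.765 (DI). Its library numbered 2 was thus the lowest in C and I and the highest in D and DI. With the block HAND2 and DBH were called lower in D vs C, where 13.9% of all tested genes were called. Of the leukocyte, endothelial and epithelial markers, PTPRC, CD3E, LYZ, PECAM1, CDH5, KRT18 and CDH1 stayed under 1 CPM in all libraries, and CD14, VWF and EPCAM reached 1.06, 2.89 and 2.33 CPM at most. The 5 fibroblast markers summed to 32.6 to 57.2 CPM in C, 23.0 to 52.8 with doxycycline (D), 65.9 to 108 with IFNγ (I) and 45.8 to 85.9 with both (DI), with DCN under 1 CPM throughout. PDGFRB carried most of that sum (means of 35.2 CPM in C and 65.2 in I), followed by COL1A2 (3.55 and 12.8), while LUM (2.02 and 0.889) and COL1A1 (0.904 and 0.647) had lower means in I, and edgeR called none of the 5 in I vs C without the block and 2 with it. With the block 6.02% of all tested genes were called in I vs C. The part of PDGFRB and COL1A2 in the results below was not tested. The 13 mitochondrially encoded mRNAs took 2.90 to 4.99% of counts in C and I and 0.768 to 2.58% in D and DI, and the part of that difference in the results was not tested either. In bulk RNA, fewer cells of a kind and less RNA per cell cannot be told apart.

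In untreated cells MCL1 was the most abundant of the 10 genes per length of exon and BCL2 the least. Its level was 61.9 ± 6.04 CPM per kb (mean ± SD, n = 3), against 4.15 ± 1.38 for BCL2. The middle of the order was PMAIP1 (22.3), BAX (17.9), BCL2L1 (17.0), BID (15.1), BAK1 (11.3), BMF (7.38), BBC3 (5.57) and BCL2L11 (4.34), all in mean CPM per kb in C. The libraries of neighbours in that order overlapped from PMAIP1 down to BAK1 and again between BCL2L11 and BCL2, and they were apart between MCL1 and PMAIP1, BAK1 and BMF, BMF and BBC3, and BBC3 and BCL2L11. Under IFNγ alone BAK1 moved to the third place at 20.9 CPM per kb, overlapping BCL2L1 at 20.5. PMAIP1 kept the second place in all 4 groups and reached 50.8 CPM per kb in DI, below the 69.4 of MCL1. The lengths are those of all annotated exons merged, so genes with long alternative exons are understated.

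**Figure D1:**
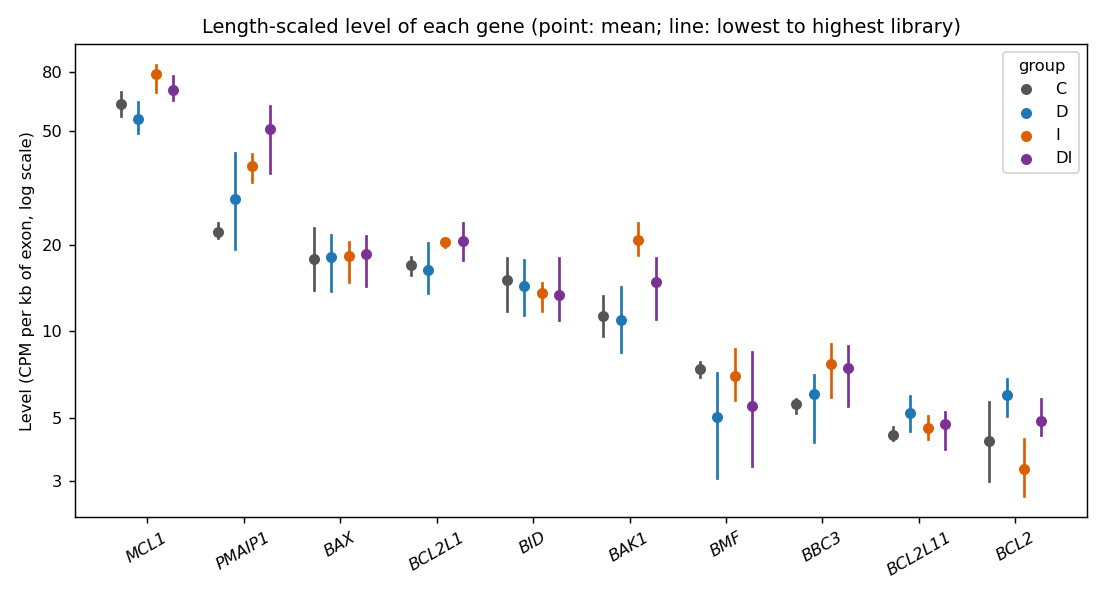
Level of each gene on a log axis in CPM per kb of merged exon, in the 4 groups (point, mean of 3 libraries; line, lowest to highest library). MCL1 lies highest in all 4 groups, from 55.0 in D to 78.7 in I, and BCL2, BCL2L11, BMF and BBC3 lie under 10.

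The promoters of 3 members are shown because the results turn on 2 of them, PMAIP1 and BAK1, while BBC3 was the sole member with a match to an interferon-type motif. Each is the RefSeq sequence on GRCh38.p14 from 250 bases before to 50 bases after a start site, written 5′ to 3′ on the gene's strand, with letters GAAANNGAAA, the core bound by IRF factors, in capitals.
PMAIP1, chr18:59899746-59900045, plus strand: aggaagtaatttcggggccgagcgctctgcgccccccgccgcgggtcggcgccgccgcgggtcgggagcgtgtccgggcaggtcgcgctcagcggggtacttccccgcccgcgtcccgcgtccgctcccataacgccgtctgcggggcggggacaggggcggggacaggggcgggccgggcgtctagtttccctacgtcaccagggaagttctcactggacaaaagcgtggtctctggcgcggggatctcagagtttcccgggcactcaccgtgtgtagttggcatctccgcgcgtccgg
BAK1, chr6:33580227-33580526, minus strand: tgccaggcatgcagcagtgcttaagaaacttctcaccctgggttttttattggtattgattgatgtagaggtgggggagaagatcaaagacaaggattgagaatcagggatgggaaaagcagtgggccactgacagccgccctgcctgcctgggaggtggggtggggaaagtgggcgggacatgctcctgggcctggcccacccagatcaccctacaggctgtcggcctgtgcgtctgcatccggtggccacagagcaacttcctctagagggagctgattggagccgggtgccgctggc
BBC3, chr19:47232618-47232917, minus strand: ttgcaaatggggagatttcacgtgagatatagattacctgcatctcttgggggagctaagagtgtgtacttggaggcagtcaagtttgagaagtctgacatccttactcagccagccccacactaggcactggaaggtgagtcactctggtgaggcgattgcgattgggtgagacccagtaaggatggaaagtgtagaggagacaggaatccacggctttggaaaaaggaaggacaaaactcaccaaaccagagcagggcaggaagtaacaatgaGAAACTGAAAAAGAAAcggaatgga
The BBC3 window held 2 overlapping copies, at bases 276 to 285 and 282 to 291 of the 300 printed, which lie after the start site. The PMAIP1 and BAK1 windows held none on either strand, nor did they hold the GAS letters TTCNNNGAA, which read the same on both strands. Of the 27305 genes with such windows, 4.38% held the IRF core and 9.38% the GAS letters in at least 1 window. Among the 9 members with a window (MCL1 was not matched), 1 held the IRF core and 0 held GAS. The E-box CACGTG, the letters bound by MYC proteins, was found for 8.77% of all genes and for BAX, BBC3 and BID. BAX held 4 copies, and BID held 1 copy, which lies in 2 of its 5 windows because these overlap. The letters TGATGNAA, a composite site of ATF4 and CHOP, were found for 4.46% of all genes and for 0 members. These are matches of letters within 300 bases and describe no binding.

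The first question was what IFNγ did to the family in cells without doxycycline. BAK1 and PMAIP1 stood higher in I than in C in all libraries, but no member passed edgeR's quasi-likelihood test at a Benjamini-Hochberg adjusted p under 0.05, where 2.21% of all tested genes did. At an unadjusted p under 0.05 there were 3 members (BAK1, PMAIP1 and MCL1), where 8% of all genes were, and DESeq2 called 1, BAK1, of 2.93% of genes. The libraries of the groups did not overlap for 5 members (BCL2L1, MCL1, BAK1, PMAIP1 and BBC3, all higher in I), where 15.1% of all tested genes did not overlap. With 3 libraries against 3, an exact permutation test of a single gene cannot give a p below 0.1. The median log2 fold change of the 10 members was 0.18, beside -0.01 over all tested genes. The replicate numbers paired the libraries, and with the number as a block in the model 1 member was called in I vs C, BAK1, where 6.02% of genes were.

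The same question in doxycycline-treated cells (DI vs D) gave no called member by edgeR, with 1.72% of genes called, and none by DESeq2 (2.3% of genes), with 2 members (PMAIP1 and MCL1) at an unadjusted p under 0.05 (6.24% of genes). Only the MCL1 libraries did not overlap, against 9.54% of all genes. With the block the call was again BAK1, where 4.46% of genes were called. The median log2 fold change of the members was 0.22, beside -0.01 over all genes.

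The second question was what doxycycline did. Of the 10 members, 0 were called by edgeR in D vs C (1.23% of genes), 0 by DESeq2 (4.56%), 0 at an unadjusted p under 0.05 (14.2%) and 0 with the block (13.9% of genes), and the groups overlapped for all 10 members (19.2% of genes did not overlap). In DI vs I, 0 were called by edgeR (0.67% of genes) and by DESeq2 (2.99%), 1 had an unadjusted p under 0.05 (BCL2, with 12.2% of genes), and 1 was called with the block, BAK1, which was lower in DI (10.5% of genes). Groups did not overlap for BCL2 and BAK1 in DI vs I, against 16.6% of genes.

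Both agents together against untreated cells gave the single call by edgeR without a block: PMAIP1 rose in DI vs C, where 4.52% of genes were called. DESeq2 called PMAIP1 as well, of 7.41% of genes. PMAIP1 was also the sole member with an unadjusted p under 0.05 in DI vs C (17.3% of genes), and the sole one whose groups did not overlap (22.4% of genes did not). With the block there were 2 calls, PMAIP1 and BAK1, both higher (19% of genes). The interaction, which asks whether the IFNγ difference in doxycycline-treated cells departs from that in cells without it, gave 0 called members and 0% of genes with and without the block, and 0 by DESeq2 (0.00377% of genes). At an unadjusted p under 0.05 there were 0 members without the block (0.625% of genes) and 1 with it, BAK1 (2.36% of genes). DI vs C shares its libraries with the other comparisons and is no independent support for them.

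**Figure D2:**
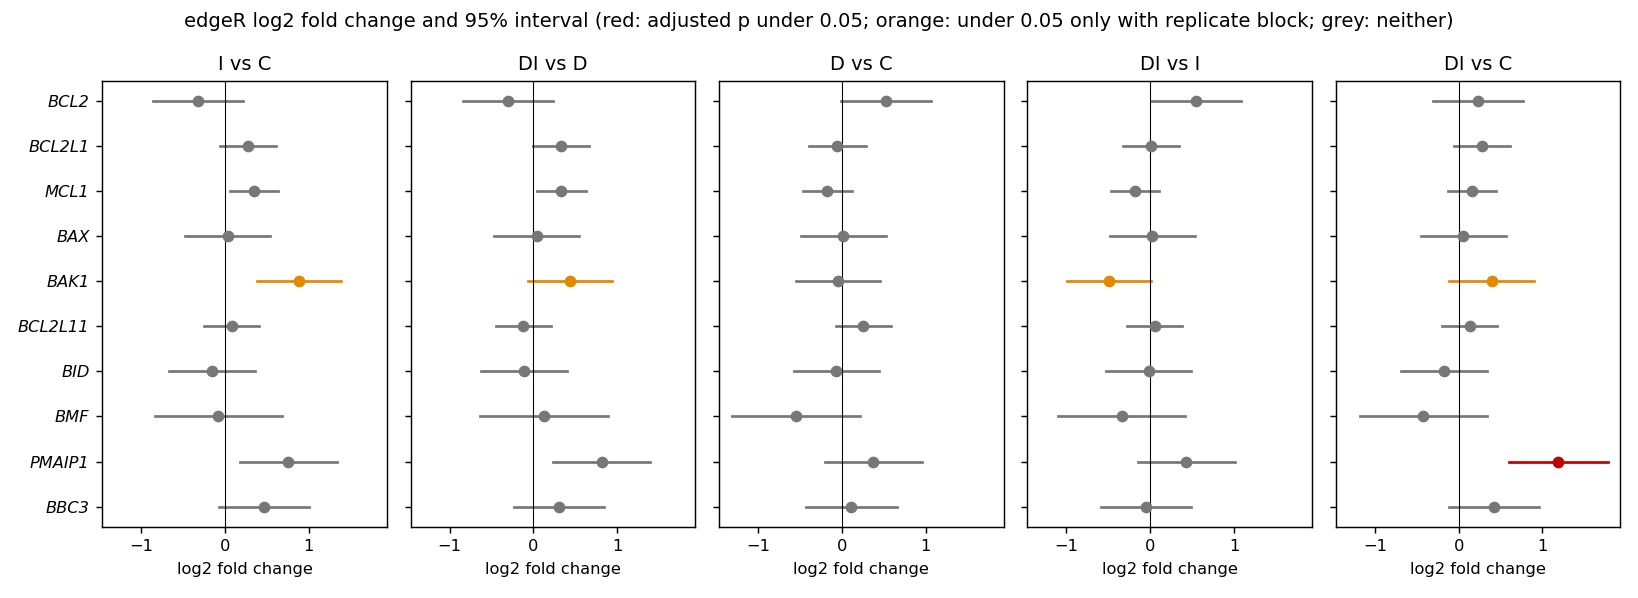
Log2 fold change of each gene (edgeR, point) with its 95% interval (line) in 5 comparisons of 3 against 3 libraries. PMAIP1 in DI vs C at 1.19 is the one value in red, and BAK1 is orange in I vs C, DI vs D, DI vs I and DI vs C.

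PMAIP1 (ENSG00000141682, chr18:59899948-59904306, GRCh38, plus strand) encodes NOXA, a BH3-only protein that binds MCL-1 and promotes its degradation. Its levels were 47.4, 53.5 and 48.4 CPM in C, 56.6, 43.4 and 93.6 with doxycycline (D), 85.4, 92.8 and 74.3 with IFNγ (I) and 125, 79.5 and 136 with both (DI). The I and DI libraries all lay above the C libraries, while the D libraries spanned those of C. The D library numbered 2 lay below all C libraries, and that numbered 3 lay above all I libraries (93.6 against 92.8 at the nearest). In DI vs C the log2 fold change was 1.19 ± 0.27 (SE), a 2.28-fold higher level, with an adjusted p of 0.0292 (edgeR), 0.00726 with the block and 0.000542 by DESeq2. The call held in 7 of 12 fits that left out a single library. It was lost without C replicate 1, 2 or 3 or DI replicate 1 or 3, where the adjusted p was 0.0749 to 0.113 and the log2 fold change 1.03 to 1.25.

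Within each replicate number PMAIP1 was higher with IFNγ in 6 of 6 pairs, by log2 ratios of 0.54 to 1.14. How many of all tested genes agree in 6 of 6 pairs was not counted. Such agreement is therefore a description only, here and for the genes below. The fitted log2 fold changes were 0.76 ± 0.26 in I vs C (adjusted p = 0.329, edgeR) and 0.82 ± 0.26 in DI vs D (adjusted p = 0.324). Neither passed with the block either (adjusted p = 0.0971 and 0.0831). The DI vs D difference was called without D replicate 3, at a log2 fold change of 1.18 (adjusted p = 0.0296, edgeR), and I vs C was called when only those 6 libraries were fitted (adjusted p = 0.0176). With doxycycline, PMAIP1 was higher in 4 of 6 pairs and lower in both pairs numbered 2 (log2 ratios of -0.30 and -0.22). The 95% interval of the interaction, -0.76 to 0.87, leaves the size of any difference between the IFNγ responses poorly fixed. Over the 12 libraries, the 3 genes whose log2 CPM followed PMAIP1 most closely were ZBED10P, KIF1C and MSI1, with Pearson r of 0.96, 0.96 and 0.94 among 13959 genes. These libraries share the same treatments, so the likeness is a description.

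BAK1 (ENSG00000030110, chr6:33572547-33580293, minus strand) encodes BAK, an effector that resides on mitochondria in healthy cells. Its levels were 24.4, 21.3 and 29.3 CPM in C, 22.4, 18.7 and 31.5 with doxycycline (D), 44.9, 40.8 and 52.8 with IFNγ (I) and 33.9, 24.4 and 40.0 with both (DI). Every I library lay above every library of the other 3 groups, and DI overlapped both C and D. The I vs C log2 fold change was 0.89 ± 0.23 (SE), a 1.85-fold higher level, with an adjusted p of 0.0961 (edgeR), 0.0125 by DESeq2 and 0.000226 with the block. Ratios within replicate numbers were close to each other in I vs C, at 0.88, 0.94 and 0.85 on the log2 scale, and smaller in DI vs D, at 0.60, 0.38 and 0.34.

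Doxycycline left BAK1 near its untreated level without IFNγ (D vs C, -0.05 ± 0.23, 95% interval -0.55 to 0.46). In IFNγ-treated cells BAK1 was lower with doxycycline in 3 of 3 pairs, by log2 ratios of -0.41, -0.74 and -0.40. The DI vs I log2 fold change was -0.49 ± 0.23 (adjusted p = 0.416, edgeR; adjusted p = 0.0109 with the block). The adjusted p with the block was 0.031 in DI vs D and 0.0249 in DI vs C, where the log2 fold changes were 0.44 ± 0.23 and 0.39 ± 0.23 (adjusted p = 0.954 and 0.429 without it). Leaving out 1 library moved some of these values by over 1.5 times. DI vs D was 0.28 without D replicate 2, 0.67 without D replicate 3 and 0.27 without DI replicate 3, DI vs I was -0.32 without DI replicate 2, and DI vs C was 0.22 without DI replicate 3. The interaction was -0.45 ± 0.32 without the block (unadjusted p = 0.192) and -0.45 ± 0.14 with it (unadjusted p = 0.00933), and the adjusted p over all genes was 1 in both fits (edgeR). Within every group the library numbered 3 had the highest BAK1 level and that numbered 2 the lowest.

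**Figure D3:**
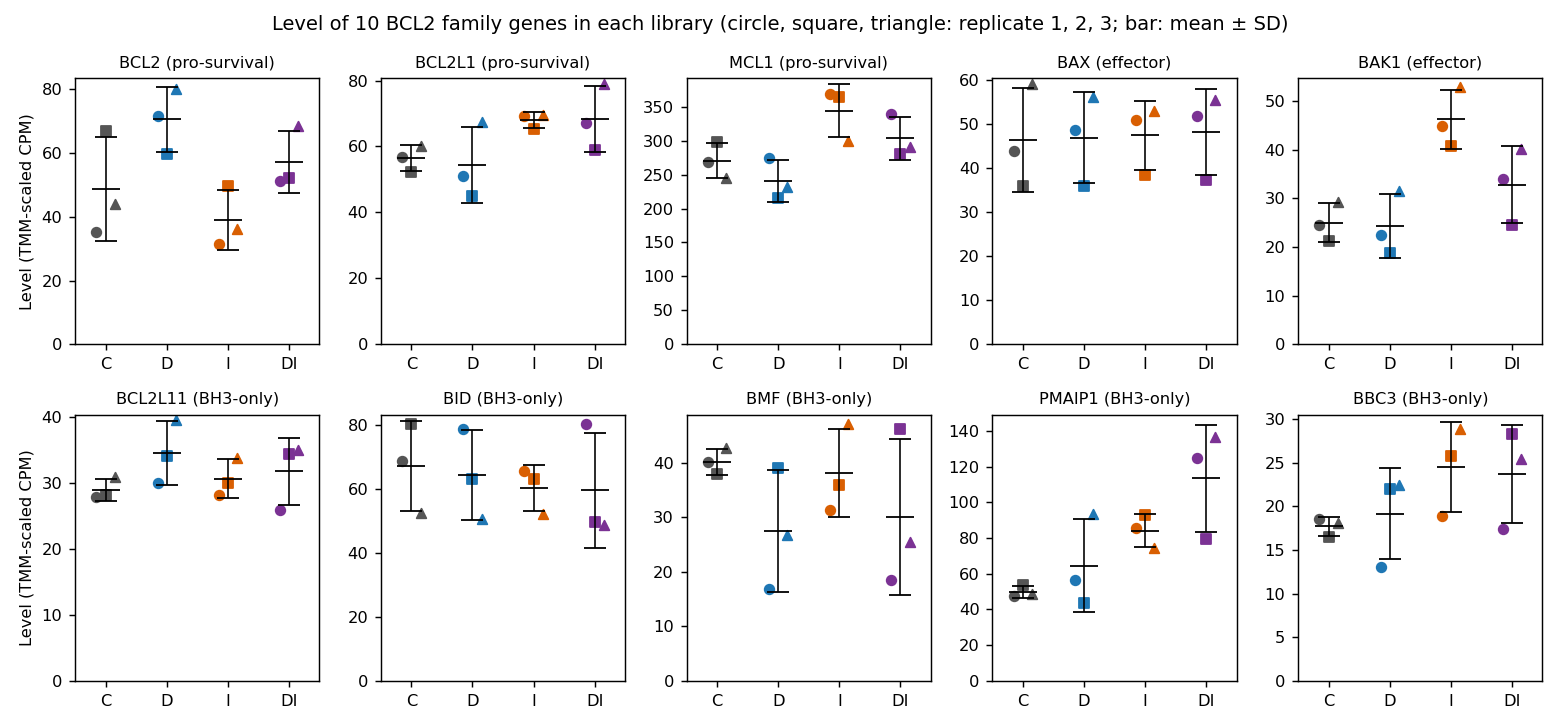
Level of each gene in CPM in the 12 libraries (symbols mark replicate numbers 1 to 3; bars, mean ± SD). BAK1 separates the I libraries from all others, PMAIP1 is highest in DI replicates 1 and 3, and BMF is lowest in replicates 1 and 3 of D and DI.

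BAX (ENSG00000087088, chr19:48954815-48961798, plus strand), the effector that moves from the cytosol to mitochondria when activated, had nearly equal mean levels in the 4 groups. These were 46.4 ± 11.7 CPM in C, 46.9 ± 10.2 with doxycycline (D), 47.4 ± 7.85 with IFNγ (I) and 48.2 ± 9.69 with both (DI) (SD, n = 3). The spread lay between replicate numbers: libraries numbered 2 were lowest in every group (36.0, 35.9, 38.4 and 37.2 CPM in C, D, I and DI) and those numbered 3 highest (59.1, 56.1, 52.9 and 55.5 CPM). BAX thus differed more between replicate numbers than between treatments. The I vs C log2 fold change was 0.03 with a 95% interval of -0.48 to 0.54, and its sign changed when library size alone scaled the counts. With the block its standard error was 0.08.

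Among the pro-survival genes, MCL1 (ENSG00000143384, chr1:150574551-150579738, minus strand) encodes a short-lived protein that restrains BAK. Its levels were 269, 298 and 245 CPM in C, 275, 215 and 231 with doxycycline (D), 369, 364 and 299 with IFNγ (I) and 339, 280 and 291 with both (DI). The I libraries all lay above C, though by 299 against 298 at the nearest, and the DI libraries above D. MCL1 was higher with IFNγ in 6 of 6 pairs, by log2 ratios of 0.29 to 0.46. The fitted log2 fold changes, 0.35 ± 0.13 in I vs C and 0.34 ± 0.13 in DI vs D, had adjusted p of 0.411 and 0.568 (edgeR) and 0.0721 and 0.0946 with the block.

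BCL2L1 (ENSG00000171552, chr20:31664452-31723989, minus strand), whose main product is BCL-XL, was measured at 56.9, 52.3 and 60.0 CPM in C and 69.2, 65.2 and 69.7 in I. With doxycycline it was at 51.0, 44.9 and 67.3 in D and 67.1, 58.9 and 78.9 in DI. The I libraries lay above C, while DI and D overlapped. It too was higher with IFNγ in 6 of 6 pairs, by log2 ratios of 0.22 to 0.39, and the adjusted p was 0.821 in I vs C and 0.828 in DI vs D (edgeR). Of its exon length, 43.0% is overlapped on the other strand by ABALON, which had 74 to 219 counts against 869 to 1752 for BCL2L1. Whether counting used strand is not given in the sources used here, so those reads are uncertain, and BCL-XL and its pro-apoptotic short form cannot be separated in gene counts.

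BCL2 (ENSG00000171791, chr18:63123346-63320128, minus strand), the founding member and the target of venetoclax, pointed the other way under IFNγ, with no difference called. Its levels were 35.4, 66.9 and 44.1 CPM in C, 71.7, 59.8 and 80.3 with doxycycline (D), 31.5, 49.7 and 36.2 with IFNγ (I) and 51.2, 52.1 and 68.4 with both (DI). It was lower with IFNγ in 6 of 6 pairs (log2 ratios of -0.49 to -0.17) and higher with doxycycline in 5 of 6, the exception being D against C at number 2 (-0.16). For IFNγ the log2 fold changes were -0.32 ± 0.24 in I vs C and -0.30 ± 0.24 in DI vs D, and the groups overlapped in both. Neither was called by edgeR or DESeq2, and with the block the adjusted p was 0.503 and 0.567 (edgeR). The log2 fold change was 0.53 ± 0.24 in D vs C, and DI vs I gave 0.55 ± 0.24, with adjusted p of 0.357 and 0.401 (edgeR) and 0.0925 and 0.11 with the block. C replicate 2 at 66.9 CPM lay within the D range, and without IFNγ this library set the overlap of the groups.

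**Figure D4:**
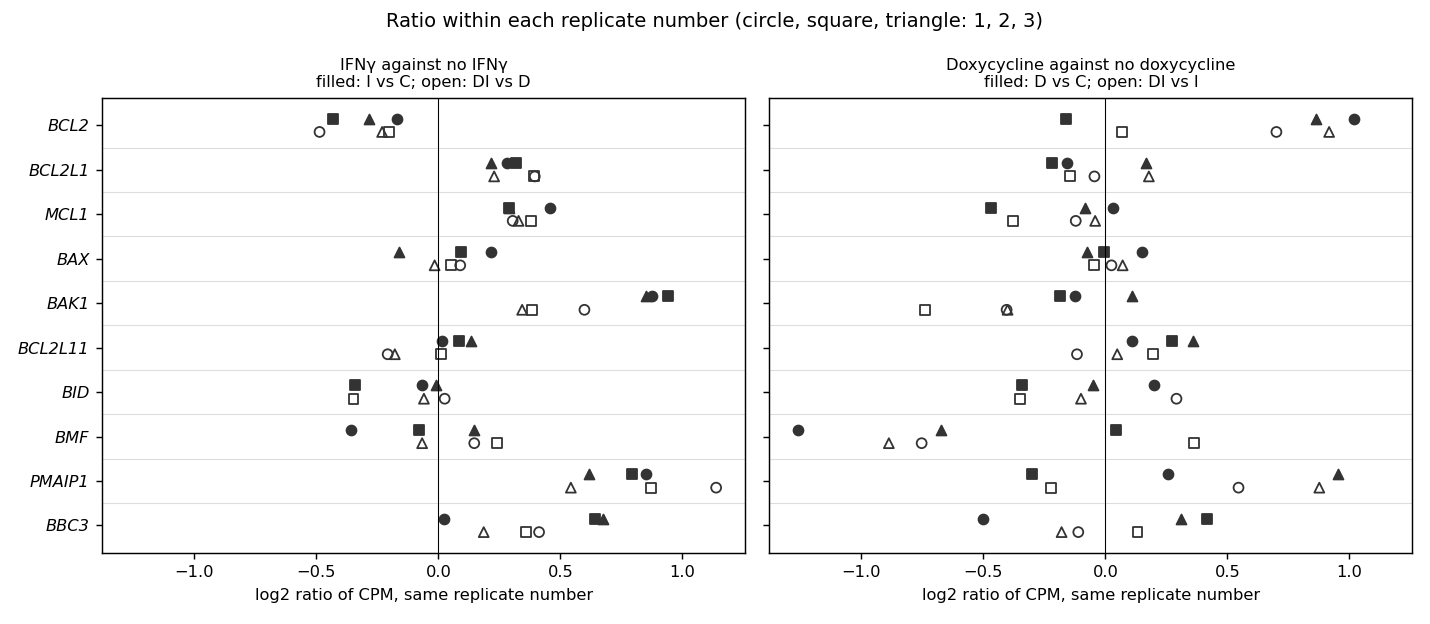
Log2 ratio of CPM between libraries of the same replicate number, with IFNγ against without (left) and with doxycycline against without (right), for both arms. BAK1, PMAIP1, MCL1, BCL2L1 and BBC3 lie right of 0 in all 6 IFNγ pairs and BCL2 left of 0, while the doxycycline ratios of BMF, PMAIP1 and BCL2 differ between number 2 and numbers 1 and 3. The share of all tested genes whose 6 IFNγ pairs agree was not counted.

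BMF (ENSG00000104081, chr15:40087890-40108892, minus strand), a BH3-only gene whose protein is held at the actin-based motor complex, varied most between replicate numbers with doxycycline. Its levels were 40.1, 37.9 and 42.6 CPM in C, 16.8, 39.0 and 26.7 with doxycycline (D), 31.3, 35.9 and 47.1 with IFNγ (I) and 18.6, 46.1 and 25.5 with both (DI). With doxycycline the libraries numbered 1 and 3 were lower, with log2 ratios of -1.26 and -0.67 (D vs C) and -0.75 and -0.89 (DI vs I), whereas those numbered 2 were slightly higher (0.04 and 0.36). The fitted D vs C log2 fold change was -0.55 ± 0.35 (adjusted p = 0.531, edgeR). DBH, an adrenergic enzyme gene on the marker list that was named after its values were seen, was at 85.9, 371 and 85.5 CPM in D against 265, 442 and 326 in C. Unlike BMF, DBH was lower with doxycycline at number 2 as well, and its library numbered 2 was also the highest in C. In both genes the doxycycline-treated libraries numbered 2 lay apart from the others. By the chi-square of counts over all genes, number 2 differed most from the other numbers in D and DI, and number 3 did in C and I. Without number 2 in every group no count of called members changed.

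BBC3 (ENSG00000105327, chr19:47220822-47232766, minus strand) encodes PUMA, a protein that binds all pro-survival members. Its levels were 18.5, 16.5 and 18.1 CPM in C, 13.1, 22.0 and 22.4 with doxycycline (D), 18.8, 25.8 and 28.9 with IFNγ (I) and 17.4, 28.2 and 25.5 with both (DI). All I libraries exceeded all C libraries, the lowest by 18.8 against 18.5, and BBC3 was higher with IFNγ in 6 of 6 pairs by log2 ratios of 0.02 to 0.68. The I vs C log2 fold change was 0.47 ± 0.24 (adjusted p = 0.755, edgeR), and its promoter window with the IRF core letters stands beside a difference that did not pass the test.

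BCL2L11 (ENSG00000153094, chr2:111119378-111168447, plus strand) and BID (ENSG00000015475, chr22:17734138-17774770, minus strand) are the remaining BH3-only genes. Their log2 fold changes largest in size were 0.25 (BCL2L11, D vs C) and -0.17 (BID, DI vs C). Those of BMF, PMAIP1 and BBC3 were -0.55 (D vs C), 1.19 (DI vs C) and 0.47 (I vs C). BCL2L11 encodes BIM, which engages every pro-survival member, and ranged from 25.9 to 39.5 CPM over the 12 libraries. Its means were 28.9 ± 1.66 CPM in C, 34.5 ± 4.82 with doxycycline (D), 30.6 ± 2.91 with IFNγ (I) and 31.7 ± 5.03 with both (DI). The D vs C log2 fold change of 0.25 had a 95% interval of -0.07 to 0.58. BID, whose product is cut by caspase-8 and so joins the death receptors to mitochondria, ranged from 48.7 to 80.2 CPM. Its means were 67.1 ± 13.9 CPM in C, 64.2 ± 14.1 with doxycycline (D), 60.3 ± 7.16 with IFNγ (I) and 59.5 ± 17.9 with both (DI), and its I vs C interval was -0.67 to 0.36. Neither had an adjusted p under 0.05 in any of the 6 contrasts, with or without the block.

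Ratios of opposing members within a library, each gene scaled by its length, are given as values only. The PMAIP1 to MCL1 ratio was 0.345, 0.351 and 0.386 in C, 0.403, 0.395 and 0.791 with doxycycline (D), 0.453, 0.498 and 0.486 with IFNγ (I) and 0.719, 0.555 and 0.918 with both (DI). All I and DI libraries thus lay above C, with means of 0.361 in C and 0.731 in DI. The BAX to BCL2 ratio was 4.73 ± 1.99 in C, 3.00 ± 0.24 with doxycycline (D), 5.84 ± 2.04 with IFNγ (I) and 3.85 ± 0.69 with both (DI) (mean ± SD, n = 3), with overlap between C and every other group. BAX to BCL2L1 was 1.04 ± 0.20 in C, 1.10 ± 0.10 with doxycycline (D), 0.89 ± 0.12 with IFNγ (I) and 0.90 ± 0.09 with both (DI). BCL2L11 to MCL1 was 0.071 ± 0.011 in C, 0.096 ± 0.021 with doxycycline (D), 0.059 ± 0.013 with IFNγ (I) and 0.070 ± 0.017 with both (DI). These ratios are between mRNA levels, and no test was made of them.

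Around the 10 genes, other parts of the pathway were read from 4 lists. Of the 11 other BCL2 family genes, 8 were tested, and 1 was called in any contrast, BAD, lower in D vs C. BAD, a BH3-only gene whose protein is switched off by growth factor kinases, was at 31.1, 33.0 and 33.4 CPM in C and 17.1, 19.4 and 22.9 in D. The log2 fold change was -0.72 ± 0.15 (adjusted p = 0.0477, edgeR; 0.00117 with the block), and DI vs I gave -0.42 ± 0.15 (adjusted p = 0.276; 0.0192 with the block). The D libraries all lay below the C libraries, but the call was lost in every one of the 12 fits that left out a library (adjusted p = 0.0557 to 0.19, log2 fold change of -0.83 to -0.62). With the block BAD was also called in DI vs C (19% of genes), together with BCL2L2 and BCL2L13, which were higher. HRK, a BH3-only gene of neurons that was named after its values were seen, ranged from 1.99 to 30.5 CPM within C, and in every group it was highest in the library numbered 3 and lowest in that numbered 2.

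Of 13 apoptosome and caspase genes, all tested, 1 was called higher in I vs C and in DI vs C and 0 in the other contrasts. XIAP, an inhibitor of executioner caspases, was the one called, with log2 fold changes of 0.45 ± 0.10 in I vs C (adjusted p = 0.041, edgeR) and 0.39 ± 0.10 in DI vs C (adjusted p = 0.0494). Its means were 49.8 ± 3.16 CPM in C and 68.0 ± 5.19 in I, and the calls held in 2 and 1 of the 12 fits that left out a library (adjusted p of 0.05 to 0.202 in the others for I vs C, and 0.0507 to 0.199 for DI vs C). With the block, 3 genes of this list were called lower in D vs C (CASP6, BIRC5 and ENDOG). The block called 13.9% of all tested genes there, in either direction. The median log2 fold change of these 13 genes in I vs C was 0.02, beside -0.01 over all tested genes.

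Of the 10 pore partners and stability factors, 1 was called, HUWE1, a ubiquitin ligase of MCL-1. It was at 339, 325 and 284 CPM in C and 602, 502 and 455 in D, a log2 fold change of 0.72 ± 0.11 (adjusted p = 0.0158, edgeR), with every D library above every C library. That call was lost without C replicate 2, C replicate 3 or D replicate 1 (adjusted p = 0.0555 to 0.086, log2 fold change of 0.60 to 0.73). Under IFNγ, HUWE1 was at 336, 345 and 367 CPM in I and 433, 403 and 421 in DI. In DI vs I no gene of this list was called higher, with or without the block. With the block, 2 genes of this list were called higher (HUWE1 and USP9X) and 2 lower (BAG1 and TPT1) in DI vs C. The block called 19% of all tested genes there, in either direction. Of 13 tested transcriptional regulators, 2 were called higher in each of I vs C, DI vs D and DI vs C, IRF1 and STAT3. Their I vs C log2 fold changes were 7.58 ± 0.18 and 1.94 ± 0.29. With the block, DDIT3 was called higher and TP73 lower in D vs C, and 3 regulators were called higher and 2 lower in I vs C, namely IRF1, STAT3 and FOXO3, and E2F1 and MYCN. Over all tested genes the block called 13.9% in D vs C and 6.02% in I vs C. DDIT3, the stress factor CHOP, was at 4.48, 3.62 and 5.48 CPM in C and 4.14, 11.9 and 24.9 in D. MYCN, amplified in this line, had a log2 fold change of -0.39 ± 0.16 in I vs C (adjusted p = 0.478, edgeR; adjusted p = 0.00902 with the block). The genes named here from the block alone were named after their values were seen.

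**Figure D5:**
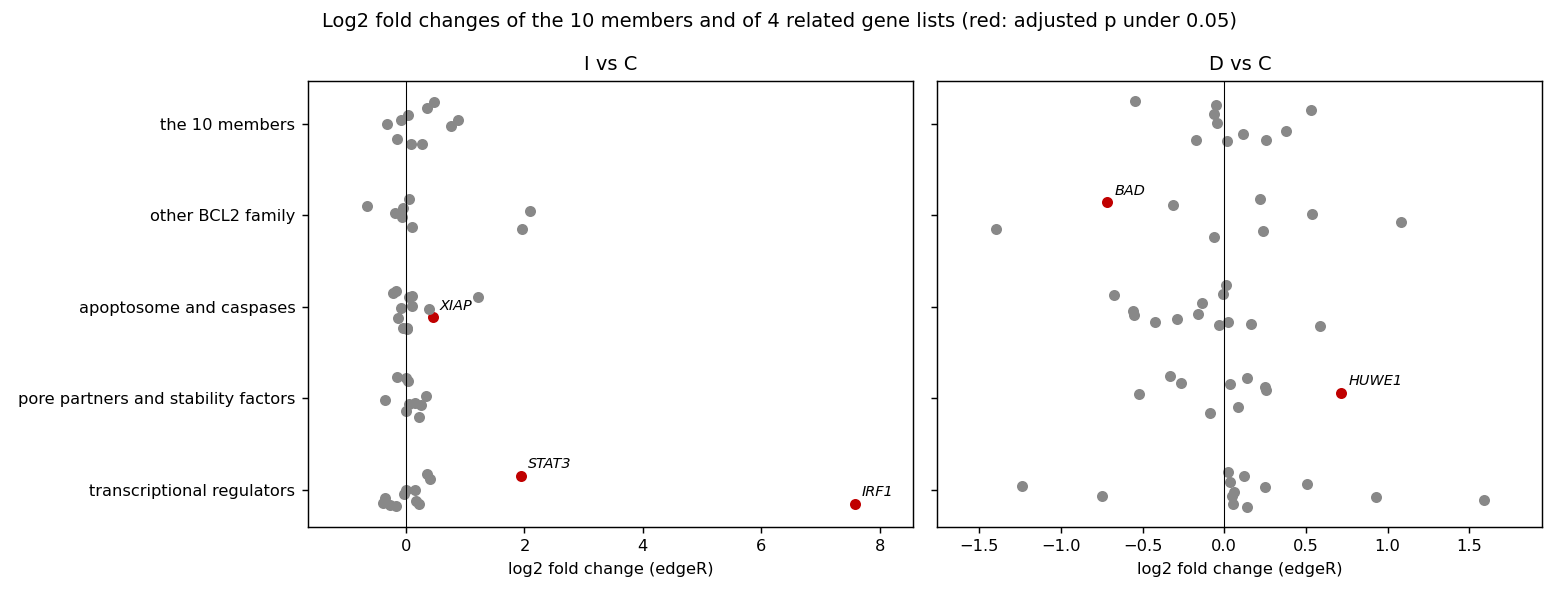
Log2 fold changes of the 10 members and the tested genes of 4 related lists in I vs C and D vs C (edgeR; red, adjusted p under 0.05; vertical position within a list is arbitrary). In I vs C the members lie between -0.32 and 0.89 while STAT3 and IRF1 lie at 1.94 and 7.58, and in D vs C the called genes are BAD and HUWE1.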

How the data were processed

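RNA was measured in 12 libraries of an SK-N-DZ clone, sequenced on an Illumina NovaSeq. The authors made and deposited raw counts per gene, whole numbers for 43769 genes. The aligner, counter, annotation and use of strand are not given in the sources used here. Positions and merged exon lengths come from GENCODE 29 (GRCh38), where all 43769 identifiers were found. The authors' 3 comparison tables (log2 fold changes, p-values and adjusted p-values), with 18 per-library columns whose names the labels do not explain, were not used.

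Counts were scaled by TMM, filtered with filterByExpr (minimum count 10) and tested with edgeR's quasi-likelihood test in a model that held all 4 groups (edgeR 4.0.16 with limma 3.58.1 under R 4.3.3). The test is two-sided, and a gene is called where its Benjamini-Hochberg adjusted p over 15828 genes is under 0.05. Depth was 16469832 to 21790869 counts per library. All 10 members are named. Genes of the other lists are named where called in at least 1 of 6 contrasts, with exceptions stated beside them, and some genes of the lists are not reported here. Members and lists were chosen with earlier results of these data known. The code was tested on simulated data. DESeq2 1.42.0 was an alternative.

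Chi-square per gene between replicates ran from 18.4 to 78.6, so none counted as a repeated library. As deviations from their group mean, same-numbered libraries correlated at 0.34 to 0.80 (18 pairs) and others at -0.63 to 0.14 (36 pairs), so the numbers pair the libraries, and values with the number as a block stand beside results whose call they change. Alternatives changed the scaling, filter, libraries fitted, block, tool and threshold, and left out each library.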

Additional observations from a re-analysis of the deposited data

How the results depend on the processing

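Of 125 recounts of called members over the 6 contrasts, 112 stayed within 1.5 times the reported count and 13 did not. For I vs C the count went from 0 to 1 with DESeq2 (BAK1), to 1 with the replicate block (BAK1) and to 2 when only the libraries compared were fitted (BAK1 and PMAIP1). The replicate block gave 1 in DI vs D, 1 in DI vs I and 2 in DI vs C, and changed no other call of a member. Leaving out 1 library gave 0 to 1 called members in DI vs D (1 without D replicate 3) and 0 to 1 in DI vs C, and 0 in the other contrasts. An adjusted p under 0.01 gave 0 in DI vs C. Fits without replicate 2 in every group, chosen after seeing the data, gave the reported counts. DESeq2's size factors, library size alone, no filter and a minimum fold of 1 on the log2 scale moved none of the 6 counts. No log2 fold change of PMAIP1 or BAK1 whose call depended on a setting reversed. Library size alone turned the sign of members with log2 fold changes of at most 0.06 in size. With 3 libraries a group, the 95% intervals of the members reached 0.29 to 0.76 to each side on the log2 scale in comparisons of 2 groups and 0.41 to 1.07 for the interaction, and isoforms and strand were not resolved. The causes of these changes were not tested.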
